A study of Arabidopsis thaliana with 12 samples.

Results

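The genes described here encode the 5 Arabidopsis thaliana proteins most directly linked with the entry of iron into chloroplasts and mitochondria. They are PIC1 (AT2G15290), NAP14 (AT5G14100), MFL1 (AT5G42130), MIT1 (AT2G30160) and MIT2 (AT1G07030). They were picked by name and locus as genes of organelle iron import, with earlier results of these data known, and all 5 of them were found among the 33607 genes listed for both rosettes and roots. Wild-type Columbia-0 seedlings, 25 to a plate, were raised in vitro on complete ES medium with 1.5% sucrose for 10 days, in light that was never switched off (50 µmol per square metre and second). They were then moved either to the same complete medium (control) or to ES medium without iron that held 100 µM FerroZine, a chelator of ferrous iron (Fe-deficient). Whole rosettes and roots were harvested 72 h after the move. Polyadenylated RNA was sequenced from 3 libraries of each of the 4 groups, which are the control and the Fe-deficient treatment in either organ. The labels number the replicates but do not say that they came from separate cultures, so the p-values measure only the spread between these libraries.

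Most of the iron of a leaf is held in chloroplasts, where it serves photosystem I, ferredoxins and heme and iron-sulfur synthesis, and mitochondria need it for the respiratory chain. Iron has to cross the inner membrane of each organelle. PIC1 is a permease of the inner chloroplast envelope that was also described as TIC21, a component of protein import. NAP14 (ABCI11) is a soluble-type subunit of an ABC transporter in plastids whose loss disturbs chloroplast iron. MFL1 (mitoferrin-like 1) belongs to the mitochondrial carrier family but sits in the chloroplast envelope. MIT1 and MIT2 are the plant relatives of yeast and animal mitoferrins and carry iron into mitochondria, where they act redundantly.

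The files give loci and no coordinates, so positions come from the RefSeq annotation of TAIR10.1. PIC1 lies on chromosome 2 at 6642300 to 6644055 (minus strand, 4 exons) and NAP14 on chromosome 5 at 4549438 to 4551843 (minus strand, 10 exons). MFL1 lies on chromosome 5 at 16835233 to 16836895 (minus strand, 1 exon). MIT1 is at 12877799 to 12879661 on chromosome 2 (plus strand, 2 exons) and MIT2 at 2158413 to 2160818 on chromosome 1 (minus strand, 2 exons). Their annotated coding sequences translate to 296, 278, 412, 331 and 326 residues in that order of naming. The mitochondrial carrier signature, a short conserved pattern of that family, matched 3 times in MIT1, 3 times in MIT2 and 2 times in MFL1. The Walker A pattern, which binds nucleotides in ATPases, matched 1 time in NAP14, and its loose letters also matched 1 time in MFL1, which is no ATPase. The ABC signature of ABC transporters, searched as the exact letters LSGGQ, matched 0 times in NAP14.

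MIT1 and MIT2 share 269 of 324 aligned residues, or 83.0%, and 81.3% of aligned coding bases. MFL1 shares 31.3% of aligned residues with MIT1 and 28.4% with MIT2. Reads from the MIT pair cannot be told apart within identical stretches. Reads that map with mismatches could also be confused beyond them, which was not tested. The longest run that both transcripts share is 32 bases, across an exon junction. The longest run within a single exon is 21 bases. It is shown here because it ends the first coding exon of both genes and overlaps the codons of the last of their carrier signatures (bases 16 to 33 of each window). Capitals mark the shared run.
MIT1: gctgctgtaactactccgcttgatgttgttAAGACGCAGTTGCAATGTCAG
MIT2: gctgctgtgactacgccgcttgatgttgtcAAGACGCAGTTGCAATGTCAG
The windows were read 5′ to 3′ along each gene from TAIR10.1, MIT1 at chr2:12878754-12878804 on the plus strand and MIT2 at chr1:2159751-2159801 on the minus strand. They differ at 3 of 51 bases, A9G, T15G and T30C, with the MIT1 base first and positions counted from 1 at the 5′ end of the window. How the authors treated reads that match both genes is not given in the sources used here.

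Levels are deposited values that behave as RPKM (reads per unit of transcript length, relative to all reads of the library), so genes can be ranked within an organ. Each organ has its own table, normalised separately, and read depth is unknown. The 5 shoot marker genes summed to between 18774 and 19123 RPKM per rosette library, and all 6 root marker genes stood at 1 RPKM or more in roots. In rosettes 2 of the 6 root markers also did so, PYK10 (131 RPKM in control) and NRT2.1 (6.22 RPKM). The 6 root markers summed to 128 to 149 RPKM in control rosettes and 3262 to 3291 RPKM in control roots, an order that goes with the organ labels. Part of the shoot marker sum in rosettes and of the root marker sum in roots does not vary. RCA is listed at 2616.5 RPKM in every rosette library and PYK10 at 2926.32 RPKM in every root library. The narrow ranges of these sums are thus no measure of how alike the tissue was. BHLH100, a transcription factor gene of the iron deficiency response, stood at 0.14 ± 0.0693 RPKM in control and 368 ± 31.6 RPKM in Fe-deficient rosettes, and at 0.46 ± 0.0346 and 114 ± 8.07 RPKM in roots (SD, n = 3).

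None of the 5 genes was called changed by iron deficiency in either organ, although other iron genes of these organelles were called in the same libraries. In rosettes and in roots, 0 of 5 were called at a Benjamini-Hochberg adjusted p under 0.05 (limma), where 1.96% of all 19006 rosette genes and 5.87% of all 19932 root genes tested were called. At an unadjusted p under 0.05 the count was also 0 of 5 in each organ, against 16.2% and 21.3% of all genes. The authors' deposited table gives p-values between 0.59 and 1.0 for the same 10 comparisons. Every one of the 10 intervals (95%) for the fold change included 1, and together they ran from 0.663 to 1.29, so a change of 2-fold or more lay outside each of them. The adjusted p-values ran from 0.25 to 0.999.

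**Figure D1:**
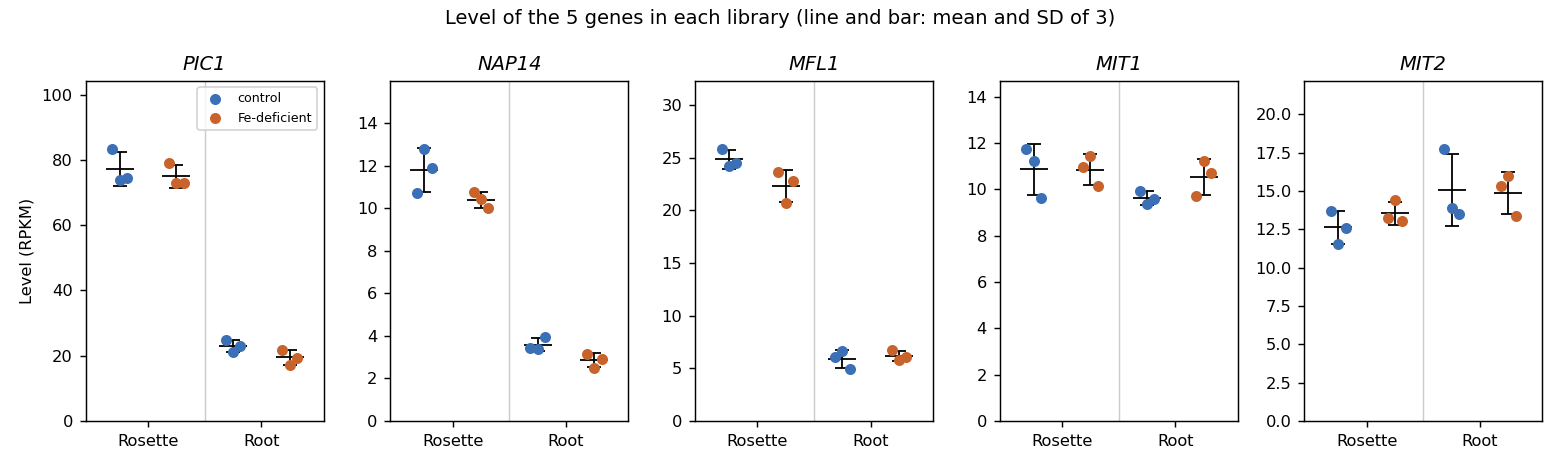
RPKM of each gene (vertical axis from 0) in the 12 libraries, control in blue and Fe-deficient in orange, with rosettes at the left and roots at the right of each panel. Points are libraries, and the line and bar are the mean and SD of 3. PIC1, NAP14 and MFL1 sit higher in rosettes than in roots, MIT1 and MIT2 lie near the same level in both, and none shows a called change with iron deficiency.

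PIC1 was the most abundant of the 5 genes in every group. In control rosettes its 3 libraries read 83.4, 74.0 and 74.6 RPKM, and in Fe-deficient rosettes 78.9, 73.1 and 72.8 RPKM. The groups overlapped, and the first replicate of each was the highest. The log2 fold change was -0.04 (SE 0.0633, limma adjusted p 0.791), with an interval of 0.872 to 1.08 in fold. In roots PIC1 read 24.8, 21.2 and 22.9 RPKM in control and 21.8, 17.3 and 19.4 RPKM in Fe-deficient libraries. These groups overlapped only because Fe-deficient replicate 1 exceeded control replicate 2. The log2 fold change in roots was -0.23 (SE 0.102, unadjusted p 0.0565, limma adjusted p 0.25), and its interval reached from 0.718 to 1.01 in fold.

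NAP14 was a gene of middling level in rosettes and the least abundant of the 5 in roots. It read 10.7, 12.8 and 11.9 RPKM in control and 10.8, 10.4 and 9.99 RPKM in Fe-deficient rosettes. Only the lowest control library fell within the Fe-deficient range. The log2 fold change was -0.17 (SE 0.0805, limma adjusted p 0.367), with a fold interval of 0.775 to 1.02. In roots it read 3.41, 3.39 and 3.96 RPKM in control and 3.13, 2.49 and 2.91 RPKM in Fe-deficient libraries. Here every Fe-deficient library lay below every control library, a separation that 26.1% of all tested root genes show in one direction or the other. The log2 fold change of -0.29 (SE 0.127, unadjusted p 0.0568) was the largest of the 10 in size, and it was not called (limma adjusted p 0.25). At levels this low the added 0.5 RPKM understates the ratio, and the authors' deposited table gives a log2 fold change of -0.34 and marks the gene as low in roots.

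NAP14 overlaps AT5G14090 on the opposite strand by 238 bases, and PIC1 overlaps AT2G15280 by 54 bases, so without strand their reads cannot be told apart there. AT5G14090 stood at 2.25 ± 0.235 and 2.23 ± 0.371 RPKM in control and Fe-deficient roots, and AT2G15280 at 23.4 ± 0.566 and 21.2 ± 3.0 RPKM (SD, n = 3). In rosettes AT5G14090 stood at 11.6 ± 2.22 and 14.4 ± 1.25 RPKM, and AT2G15280 at 16.5 ± 1.78 and 17.3 ± 0.327 RPKM. AT5G14090 was thus near the level of NAP14 in rosettes. Its log2 fold change there, 0.32 (unadjusted p 0.0639, limma adjusted p 0.341), had the opposite sign to that of NAP14. AT2G15280 was near the level of PIC1 in control roots (23.0 RPKM). Its root log2 fold change, -0.15 (unadjusted p 0.212, limma adjusted p 0.493), had the same sign as that of PIC1. How far reads of these neighbours enter the NAP14 and PIC1 values was not tested. Neither neighbour was called in either organ.

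MFL1 was second to PIC1 in rosettes. It read 25.8, 24.2 and 24.6 RPKM in control and 23.6, 20.7 and 22.8 RPKM in Fe-deficient rosettes. All 3 Fe-deficient libraries were below all 3 controls, as in 21.4% of tested rosette genes in one direction or the other. The log2 fold change was -0.15 (SE 0.0648, unadjusted p 0.0584, limma adjusted p 0.332), and the fold interval was 0.808 to 1.01. In roots MFL1 read 6.06, 6.67 and 4.96 RPKM in control and 6.71, 5.81 and 6.03 RPKM in Fe-deficient libraries. The Fe-deficient values lay within the control range except for 6.71, with a log2 fold change of 0.07 (SE 0.127, limma adjusted p 0.807) and a fold interval of 0.851 to 1.29.

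The mitochondrial pair ranged from 9.37 to 11.7 RPKM for MIT1 and from 11.5 to 17.7 RPKM for MIT2 over all 12 libraries. MIT1 read 11.7, 11.2 and 9.61 RPKM in control and 10.9, 11.4 and 10.2 RPKM in Fe-deficient rosettes. Its rosette means, 10.86 ± 1.11 and 10.85 ± 0.656 RPKM, were nearly the same, and the fold interval was 0.855 to 1.17 (limma adjusted p 0.999). In roots MIT1 read 9.94, 9.37 and 9.58 RPKM in control and 9.7, 11.2 and 10.7 RPKM in Fe-deficient libraries. Fe-deficient replicate 1 fell among the controls and the other two above them, with a log2 fold change of 0.12 (SE 0.0826, limma adjusted p 0.461) and a fold interval of 0.95 to 1.25. MIT2 read 13.7, 11.5 and 12.6 RPKM in control and 13.2, 14.4 and 13.0 RPKM in Fe-deficient rosettes. Its rosette log2 fold change was 0.10 (SE 0.0815, limma adjusted p 0.609), with overlapping groups and a fold interval of 0.934 to 1.23. In roots it read 17.7, 13.9 and 13.5 RPKM in control and 15.3, 15.9 and 13.3 RPKM in Fe-deficient libraries. Control replicate 1 was the highest of the 6 root libraries, and the log2 fold change was -0.01 (SE 0.124, limma adjusted p 0.982), with a fold interval of 0.81 to 1.22.

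Because MIT1 and MIT2 act redundantly, their sum was also taken. It was 23.5 ± 1.74 RPKM in control and 24.4 ± 1.35 RPKM in Fe-deficient rosettes, and 24.7 ± 2.60 and 25.4 ± 1.59 RPKM in roots (SD, n = 3). MIT1 made up 43.3% to 49.3% of the sum in control and 43.8% to 45.3% in Fe-deficient rosettes. In roots its share was 35.9% to 41.5% in control and 38.8% to 44.5% in Fe-deficient libraries. The ranges of the treatments overlapped in each organ.

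The precision reached differs between the genes. A call in rosettes would have needed a change of 1.3-fold for PIC1 and MFL1, 1.39-fold for NAP14, 1.40-fold for MIT2 and 1.47-fold for MIT1, from each gene's SE and the largest p that was called. In roots it would have needed 1.29-fold for MIT1, 1.38-fold for PIC1, 1.47-fold for MIT2 and 1.49-fold for NAP14 and MFL1. The SE of PIC1 in rosettes, 0.0633, was below the median of 0.096 over all tested genes, and that of NAP14 in roots, 0.127, was above the root median of 0.107. These are sizes of the estimate that would have been called in this fit, not limits on the true change.

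Whether the organs differ in response was tested on the difference of the log2 fold changes, rosette minus root. None of the 5 genes passed (0 of 5 at an adjusted p under 0.05 and 0 of 5 at an unadjusted p under 0.05, limma estimates with Satterthwaite degrees of freedom). Over all 17680 genes tested in both organs, 3.48% passed at the adjusted and 16.4% at the unadjusted threshold. The differences ran from -0.22 (SE 0.143, adjusted p 0.502) for MFL1 to 0.19 (SE 0.12, adjusted p 0.483) for PIC1. Leaving out 1 library moved the MFL1 difference between -0.31 and -0.11 and the PIC1 difference between 0.11 and 0.27, with no call. The interval of the MFL1 difference ran from -0.54 to 0.10 and that of PIC1 from -0.07 to 0.45, both on the log2 scale.

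The order of the levels differed between the organs. In control rosettes it was PIC1, MFL1, MIT2, NAP14 and MIT1. PIC1 was 3.11 times MFL1, and MFL1 was 1.97 times MIT2, with no overlap between replicates. The last 3 genes, at 12.6 ± 1.09, 11.8 ± 1.04 and 10.9 ± 1.11 RPKM, did not separate beyond their replicate ranges. In control roots the order was PIC1, MIT2, MIT1, MFL1 and NAP14, at 23.0 ± 1.79, 15.0 ± 2.34, 9.63 ± 0.288, 5.90 ± 0.867 and 3.59 ± 0.323 RPKM (SD, n = 3). There each gene was clear of the next by its replicate range. The order of means was the same in Fe-deficient roots. In Fe-deficient rosettes MIT1 came before NAP14, and these 2 overlapped.

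Set across the separately normalised tables, and so with no test, the 3 chloroplast genes stood more than 3 times higher in rosettes, while the mitochondrial pair stood near the same level in both organs. The ratio of control means, rosette to root, was 3.37 for PIC1, 3.29 for NAP14 and 4.22 for MFL1. It was 1.13 for MIT1 and 0.839 for MIT2. The median ratio over the 17680 genes tested in both organs was 0.784. Against those genes, the ratios of PIC1, NAP14 and MFL1 were above 90.8%, 90.6% and 92.4% of them, and those of MIT1 and MIT2 above 73.1% and 55.4%. The shoot markers had a median ratio of 107, well above the ratios of the chloroplast importers. In bulk tissue, fewer cells of a type and less RNA per cell cannot be told apart.

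Genes of like place in the cell stood beside them. Among 12 genes of plastid protein import, the machinery that PIC1 has been placed in as TIC21, the median rosette to root ratio was 3.56. TIC110, an inner envelope import protein, had a ratio of 3.70, and TIC20-I, a channel protein, one of 13.9. The list's lowest ratios, named after their values were seen, were those of TIC32 (0.418) and TOC34 (0.81). Of these, only TIC32 lay below the median of 0.784 over all genes tested in both organs. ABCI10 and ABCI12, other plastid ABC proteins of the class of NAP14, had ratios of 2.19 and 3.3. Among 15 tested genes of the mitochondrial carrier family, to which MIT1, MIT2 and MFL1 belong, the median was 0.682. SAMC1, a carrier of S-adenosylmethionine found in plastids as well as mitochondria, had 2.17 and its relative SAMC2 0.935. The highest in that list, also named after its value was seen, was BOU with 2.62, below the 4.22 of MFL1.

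**Figure D2:**
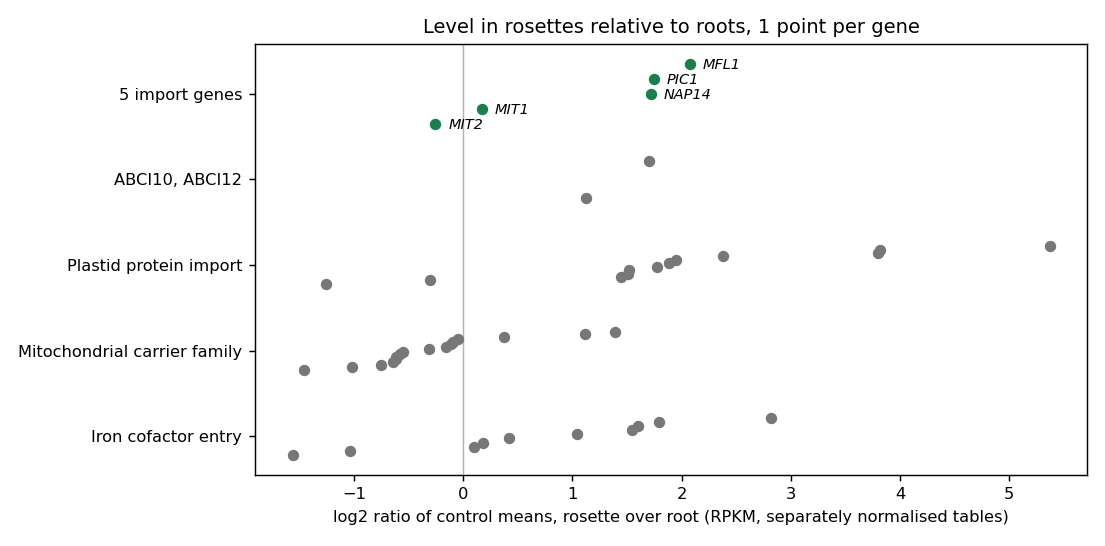
Log2 ratio of the control mean in rosettes to that in roots (horizontal axis, RPKM from separately normalised tables), with 1 point per gene and 1 row per gene list. MFL1, PIC1 and NAP14 lie among the plastid import genes, at 4.22, 3.37 and 3.29 on the linear scale, and MIT1 and MIT2 among the mitochondrial carriers, at 1.13 and 0.839.

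The importers were set beside the genes that reduce, release and store iron in the same organelles, a list of 11. In rosettes 10 were tested, and 1 was higher and 4 lower, where 0.679% of all genes tested were called higher and 1.28% lower. In roots 8 were tested, and 2 were higher and 4 lower, against 3.52% and 2.35% of all genes. Of the 7 tested in both organs, 5 differed between organs, all with the lower log2 fold change in rosettes, where 2.09% of all genes passed in that direction and 1.39% in the other. FRO3, a ferric reductase of mitochondria, rose in both organs. Its mean was 27.0 ± 0.638 RPKM in control and 155 ± 3.07 RPKM in Fe-deficient rosettes, and 14.5 ± 0.146 and 110.4 ± 0.187 RPKM in roots (SD, n = 3), log2 fold changes of 2.50 and 2.89. FPN3, an iron exporter of plastids and mitochondria, rose in roots from 6.17 ± 0.0907 to 15.7 ± 1.23 RPKM (log2 fold change 1.28, limma adjusted p 0.000271). In rosettes it stood at 31.1 ± 1.03 and 31.7 ± 5.08 RPKM and was not called. The difference between organs for FPN3 was -1.26 (limma adjusted p 0.000263).

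The storage side moved the other way. Of the plastid ferritins, FER1, FER3 and FER4 were lower in both organs, by log2 fold changes of -4.76, -1.73 and -3.93 in rosettes and -2.23, -0.93 and -1.94 in roots. FER2 was lower in roots (-1.82) and was below the level for a test in rosettes. NEET, an iron-sulfur protein of chloroplasts and mitochondria, fell by 5.31 on the log2 scale in rosettes, and is listed at 0.11 RPKM in all 6 root libraries. FRO7, the ferric reductase of the chloroplast envelope, was not called in rosettes (31.9 ± 4.09 and 38.4 ± 7.38 RPKM, limma adjusted p 0.49) and is listed at 0.02 RPKM in every root library. Whether any reads lie behind the identical root values of NEET and FRO7 is unknown, so they are not read as stable levels. FRO8, another mitochondrial reductase, and YSL4 and YSL6, linked with iron release from chloroplasts, were not called in any organ where they were tested. Their log2 fold changes lay between -0.14 and 0.09. The within-organ calls of FRO3, FPN3, the ferritins and NEET held in all 13 alternatives run for each.

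**Figure D3:**
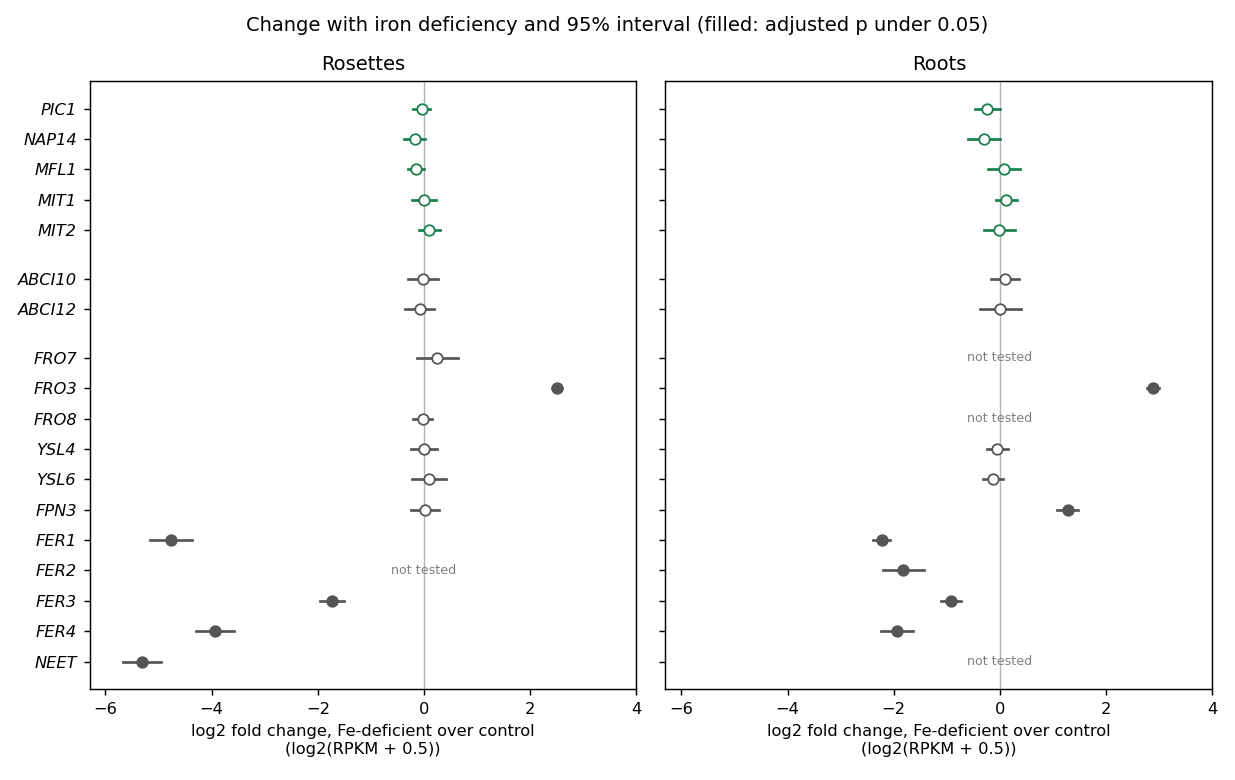
Log2 fold change of Fe-deficient over control, on the log2(RPKM + 0.5) scale, with its 95% interval for the 5 import genes (green), ABCI10 and ABCI12, and 11 genes of organelle iron reduction, release and storage (grey). Filled points passed an adjusted p under 0.05, and the import genes lie between -0.29 and 0.12 while FRO3 stands at 2.50 and 2.89 and FER1 at -4.76 and -2.23.

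Beyond the membrane, 10 genes stand where imported iron enters its cofactors. SUFB, the scaffold protein of plastid iron-sulfur assembly, was lower in both organs. It stood at 121 ± 1.59 RPKM in control and 17.7 ± 2.67 RPKM in Fe-deficient rosettes, and at 41.4 ± 1.61 and 18.2 ± 1.07 RPKM in roots (SD, n = 3). It was the only one of the 10 called in either organ, where 1.96% (rosettes) and 5.87% (roots) of all genes were called. At an unadjusted p under 0.05 stood 3 of the 10 in rosettes and 2 in roots, against 16.2% and 21.3% of all genes. The other 9 were the plastid genes NFS2, SUFC, SUFD, FC1 and FC2 and the mitochondrial genes NFS1, ISU1, FH and ATM3, with log2 fold changes between -0.40 (FC2, roots) and 0.22 (ISU1, roots). Over the 10, log2 fold changes had a median of -0.05 (rosettes) and -0.02 (roots), against 0.001 and -0.02 over all genes tested. For the 5 importers the median was -0.04 in rosettes and -0.01 in roots.

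In the other families the calls at the adjusted threshold were few. Over all genes tested, 1.96% were called in rosettes and 5.87% in roots, and 16.2% and 21.3% stood at an unadjusted p under 0.05. Of the carrier family, 0 of 15 tested were called in rosettes (limma, 4 at an unadjusted p under 0.05) and 1 of 15 in roots (7 unadjusted). The root gene was DTC, a dicarboxylate and tricarboxylate carrier, which rose from 245 ± 5.18 to 334 ± 6.22 RPKM. Of plastid protein import, 0 of 12 were called in rosettes (limma, 9 at an unadjusted p under 0.05) and 1 of 12 in roots (5 unadjusted). All of those 9 were lower in Fe-deficient rosettes except HSP93-V (log2 fold change 0.16), named after its value was seen. The root gene was TIC32, which rose from 64.6 ± 7.82 to 97.2 ± 10.6 RPKM (limma adjusted p 0.0317), a call that was lost when any 1 of the 6 root libraries was left out. The medians of the import list, -0.11 in rosettes and -0.05 in roots, had the sign of the PIC1 values. ABCI10 and ABCI12 were not called in either organ (limma, 0 of 2 also at an unadjusted p under 0.05).

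In roots the summed level of the 5 shoot markers was 170 to 185 RPKM in control and 124 to 152 RPKM in Fe-deficient root libraries, with all 5 at 1 RPKM or more. Of the 5, RBCS1A and RCA were called lower, where 2.35% of all root genes were, and the other 3 were not called. Among the uncalled root values of the chloroplast importers, those of PIC1 and NAP14 had the sign of the marker sums and that of MFL1 (0.07) the opposite sign. The part of green tissue in these values was not tested.

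Among the 5 genes, PIC1 and NAP14 varied together most, with a Pearson correlation of 0.63 over the 12 libraries after the mean of each organ was taken off. MIT1 and MIT2 had 0.24, and NAP14 and MIT1 had -0.52. These are descriptions over libraries that share treatment and normalisation. By the same measure over 17679 other genes, the pattern of PIC1 was most like that of CSR1 (AT3G48560, r 0.924), emb2184 (AT1G75350, 0.921) and AT1G20300 (0.92). For NAP14 these were AT5G14910 (0.96), GYRA (AT3G10690, 0.942) and PRPL11 (AT1G32990, 0.938). For MFL1 they were ARAC5 (AT1G75840, 0.925), AT3G10405 (0.907) and PME31 (AT3G29090, 0.89). For MIT1 they were AT1G73450 (0.907), AT1G71240 (0.89) and AT5G03890 (0.859), and for MIT2 AT5G18380 (0.911), AT3G05760 (0.898) and AT4G13615 (0.897). These values were picked as the highest of 17679 over only 12 libraries. How high the best of as many unrelated genes would reach was not tested.

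The 250 bases before each annotated gene start were searched on both strands for the palindrome CACGTG, the G-box bound by many bHLH factors. It was found before 0 of the 5 importers, before 3 of the 11 genes of organelle iron reduction, release and storage (FRO7, FER3 and FER4), and before 6.49% of 27443 nuclear protein-coding genes. A match is a description of the letters in this window only.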

How the data were processed

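Bcl2fastq 1.8.4, Trimmomatic 0.35, Bowtie2 2.0.6, edgeR 3.12.1, limma 3.26.9 and the TAIR10 build are named in the submitters' processing notes, without roles. Read counting, use of strand and annotation are not given in the sources used here. The headers name no unit. The deposited values were taken as RPKM: times RefSeq transcript length in kilobases their sums lie between 1128597 and 1131654 in the rosette libraries, and from 1125582 to 1127821 in the root libraries. At equal rank among the highest of these products, the coefficient of variation between libraries had a median of 0.563% and 0.71%. Whether the scaling factor of TMM, the name the tables carry, would leave them as alike was not tested. Exact values also repeat. RCA is listed at 2616.5 RPKM in every rosette library and PYK10 at 2926.32 RPKM in every root library. In rosettes RBCS1A takes only the values 6504.34 and 7618.66 RPKM, and LHCB1.3 only 7480.01 and 6385.97 RPKM. Distributions equalised by rank within each table were assumed from this closeness and these repeats. Such equalising removes any change shared by most genes and narrows the spread of abundant genes. Whole reads could not be recovered (24.0% and 16.5% of ratios of low values within 0.1 of a whole number), so depth is unknown and no counting interval is given. The deposited log2 fold change equals the log2 ratio of group means within 0.02 for 99.9% of rosette genes tested. The deposited p-value is headed Z-test, and whether it is adjusted is not stated.

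Columns were matched to samples by name, and 0 were left unmatched. Of 33611 rows per table, 4 are not loci and were left out. The filter was a mean of 1 RPKM or more over the 6 libraries of an organ, which all 5 importers passed. log2(RPKM + 0.5) was fitted per organ with limma 3.58.1 in R 4.3.3 (eBayes with trend, two-sided, Benjamini-Hochberg over all genes tested). The procedure was also run on simulated data with independent noise. The changes planted there were larger than any estimate for the 5 members, so that run does not bear on changes as small as theirs. Fold changes on this scale understate those of low genes. An exact permutation of 3 against 3 cannot give a p below 0.1 and was not used. Protein identity comes from a global alignment of translated RefSeq coding sequences (Biopython 1.88, BLOSUM62, gap penalties 10 and 0.5). Named genes were the 5 members, the lists of organelle iron handling, cofactor entry and plastid ABC proteins, the carriers and import genes called in either organ plus SAMC1, SAMC2, TIC20-I and TIC110, markers, iron status checks and the 3 genes most correlated with each member. The antisense neighbours were added for their overlap. The members and lists were chosen with earlier results of these data known. Alternatives were pseudocounts of 0.1 and 1, no filter, no trend, median centring, 1 fit of all 12 libraries, a replicate block and leaving out each library. RNA integrity scores were 8.3 to 8.7 in leaves and 9.8 to 10 in roots, per the labels' protocols.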

Additional observations from a re-analysis of the deposited data

How the results depend on the processing

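The 5 import genes gave 0 calls under each alternative, 13 within an organ and 19 for the difference between organs, with a lowest adjusted p of 0.113 (NAP14 in roots, 1 fit of all 12 libraries). At an unadjusted p under 0.05 stood 14 of 225 values, for PIC1 and NAP14 in roots, NAP14 and MFL1 in rosettes and the PIC1 difference. The sign turned in 9 values. MIT1 in rosettes, at 0.002 on the log2 scale, became -0.0013 with median centring and ran from -0.0798 to 0.0581 when a library was left out. On leaving out a library, PIC1 in rosettes ran from -0.0809 to 0.0118, MFL1 in roots from -0.0396 to 0.157, MIT2 in roots from -0.0782 to 0.112 and the MIT2 difference from -0.0116 to 0.178. The replicate numbers were not taken to pair the libraries. Deviations of same-numbered control and Fe-deficient libraries had correlations of 0.088, -0.16 and 0.247 in rosettes and -0.003, 0.006 and 0.103 in roots. Differently numbered libraries had -0.309 to 0.244 in rosettes and -0.087 to 0.084 in roots. Only number 3 stood above these ranges, and by little, so a pairing is not shown. With the replicate block, PIC1 in roots stayed at -0.23 (adjusted p 0.127), 1 rosette carrier was called, and 2 carriers and 1 protein import gene differed between organs. With the block, 188 genes in all were called in rosettes (372 without it) and 880 in roots (1170 without it). Over all genes, leaving out a library gave 167 to 330 calls in rosettes and 523 to 971 in roots, no filter gave 692 in roots, and the fit of 12 libraries gave 562 in rosettes. Of the protein import list, 0 were called in roots with no filter, with no trend and on leaving out any 1 library (0 to 0), 2 in the fit of 12 libraries, and 0 to 1 in rosettes on leaving out a library. That fit also called 2 root genes of cofactor entry and 2 root carriers. The carriers called were 1 to 2 in roots and 0 to 1 in the difference when a library was left out, and 1 in the difference with median centring. The cause was not tested. The other values kept their sign on leaving out a library. In rosettes NAP14 ran from -0.236 to -0.113, MFL1 from -0.19 to -0.0962 and MIT2 from 0.0402 to 0.16. In roots PIC1 ran from -0.316 to -0.152, NAP14 from -0.353 to -0.213 and MIT1 from 0.0778 to 0.177. The differences ran from 0.109 to 0.272 for PIC1, from 0.0423 to 0.182 for NAP14, from -0.307 to -0.111 for MFL1 and from -0.202 to -0.0636 for MIT1. Depth is unknown.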
